A study of Homo sapiens with 4 samples.

Results

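The zinc finger genes of chromosome 19 were examined in the MDS-L line and its AZA-resistant derivative, MDS-L/CDA, with and without 5-azacytidine (AZA). MDS-L is a human cell line derived from a myelodysplastic syndrome, a clonal disease of blood-forming cells, and MDS-L/CDA was made from it by transducing CDA. AZA is a cytidine analog that is built into nucleic acids and traps DNA methyltransferases, so that DNA methylation is lost as cells divide. Both lines were grown with IL-3 and exposed for 72 h to vehicle (0.1% DMSO) or to 1 μM AZA, and RNA was hybridised to a 1-colour Agilent expression array. The 4 conditions, MDS-L with vehicle, MDS-L with AZA, MDS-L/CDA with vehicle and MDS-L/CDA with AZA, had 1 array each, all on 1 slide, so no test within a line was possible and every comparison below is a description of these 4 arrays. Whether MDS-L/CDA is a single clone was not given in the sources used here. Members were the genes whose symbol begins with ZNF and whose probe maps to chromosome 19 in the hg19 positions of the array files, antisense transcripts left out. They numbered 249 genes with 374 probes, of 43311 genes on the array. One probe stood for each gene, that with the highest mean log2 signal over the 4 arrays, and 217 of the 249 genes were well above background on at least 1 array by the scanner software's own call.

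Most ZNF genes of this chromosome encode proteins with tandem C2H2 fingers, in which a pair of cysteines and a pair of histidines hold a zinc ion and the residues between them read DNA. Many also carry a KRAB domain, which recruits the corepressor TRIM28 and through it SETDB1, a histone H3 lysine 9 methyltransferase, and DNA methyltransferases. Their best known targets are retroelements, and the genes themselves lie in tandem clusters that arose by repeated duplication. Because duplicated fingers are alike, a probe placed in the finger array can be close to those of related genes.

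The probes were 60 bases long, and 19 of the 249 matched part of a C2H2 finger in an open frame. The match took either a cysteine codon and both histidine codons, or both cysteine codons and a histidine codon. Those of 4 genes whose values are described below are shown to let a reader see what was hybridised. The matched cysteine codons (TGT) and histidine codons (CAT or CAC) are in capitals and all other bases in lower case. Their hg19 positions, all on the minus strand, are chr19:9677285-9677344 for ZNF121, chr19:9577583-9577642 for ZNF560, chr19:12154801-12154860 for ZNF878 and chr19:56895538-56895597 for ZNF582.
ZNF121: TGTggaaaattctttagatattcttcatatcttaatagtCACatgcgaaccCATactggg
ZNF560: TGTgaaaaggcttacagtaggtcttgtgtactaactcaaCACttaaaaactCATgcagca
ZNF878: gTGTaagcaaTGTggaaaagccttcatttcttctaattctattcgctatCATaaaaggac
ZNF582: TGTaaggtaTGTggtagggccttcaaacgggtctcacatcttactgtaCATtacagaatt
None of these 4 shared a run of 20 bases with a probe of another gene, whereas 18 of the 249 probes did. Of those 18, 15 lay in 1 cluster, between 19.79 and 24.31 Mb.

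AZA leads to loss of methylation at CpG dinucleotides, so the promoters of 3 members with large differences are shown as well. They run from 250 bases before to 50 after the transcription start in RefSeq (GRCh38.p14), with each CpG in capitals. ZNF541 lies at chr19:47573099-47573398 on the minus strand and held 49 CpG, the most of any member matched. ZNF791, at chr19:12610670-12610969 on the plus strand, held 23, and ZNF121, at chr19:9584455-9584754 on the minus strand, held 24.
ZNF541: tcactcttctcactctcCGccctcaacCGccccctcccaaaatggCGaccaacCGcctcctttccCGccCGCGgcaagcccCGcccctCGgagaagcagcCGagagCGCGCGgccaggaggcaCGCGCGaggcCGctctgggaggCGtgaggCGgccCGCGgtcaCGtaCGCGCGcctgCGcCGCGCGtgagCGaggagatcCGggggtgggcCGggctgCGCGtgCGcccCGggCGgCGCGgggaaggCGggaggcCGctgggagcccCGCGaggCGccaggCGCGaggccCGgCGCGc
ZNF791: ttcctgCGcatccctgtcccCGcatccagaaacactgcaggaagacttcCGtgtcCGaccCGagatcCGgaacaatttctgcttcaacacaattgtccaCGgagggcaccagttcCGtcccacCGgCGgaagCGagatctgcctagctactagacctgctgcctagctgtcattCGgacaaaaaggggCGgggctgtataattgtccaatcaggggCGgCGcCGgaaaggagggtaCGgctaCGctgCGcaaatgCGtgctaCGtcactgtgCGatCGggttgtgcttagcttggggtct
ZNF121: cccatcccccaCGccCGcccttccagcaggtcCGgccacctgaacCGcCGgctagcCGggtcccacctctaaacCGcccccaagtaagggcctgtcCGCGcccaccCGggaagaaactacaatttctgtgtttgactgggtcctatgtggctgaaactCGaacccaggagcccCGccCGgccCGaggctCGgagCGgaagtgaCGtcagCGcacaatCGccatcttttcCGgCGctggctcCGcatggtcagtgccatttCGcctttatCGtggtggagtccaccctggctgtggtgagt
A promoter was found for 211 of the 249 members, and these held a median of 20 CpG (interquartile range 14.5 to 25.5, range 2 to 49) in 300 bases, against a median of 14 (4 to 28) over all 35116 promoters of the table. At least 10 CpG were present in 93.8% of the members' promoters and in 56.4% of all. The arrays measured no methylation, so these counts describe sequence only.

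Signals are given as the array's processed signal scaled so that the 75th percentile of all probes on that array is 100, and a signal of 1 probe is never set against that of another. The lowest signal called well above background was 18.99 and 19.03 on the MDS-L arrays, 27.2 on the MDS-L/CDA vehicle array and 29.6 on the MDS-L/CDA AZA array, so dim genes were harder to see in MDS-L/CDA. Between 32.6% and 36.5% of all 58185 probes were well above background on an array, and none was saturated. From probes spotted 10 times on each array, the SD of a log2 AZA/vehicle ratio was 0.28 in MDS-L and 0.38 in MDS-L/CDA. That SD covers spot noise only, not variation between cultures. The blood and myeloid genes CD34, CD33, ANPEP, SPI1, PTPRC and KIT were well above background on all 4 arrays, MPO on none. Of 9 T cell, epithelial and fibroblast markers, CD3D was above it only in MDS-L with AZA, KRT8 on all 4 arrays, and the other 7 on none. Of the B cell genes, CD79A was above it on all 4 arrays and MS4A1 on none. KIT and CD3D were highest in MDS-L with AZA, and KIT read 50.3, 2382, 34.6 and 124 and CD3D 17.7, 447, 8.65 and 15.3 on the arrays in the order given above. Their part in the results was not tested. The single CDA probe read 10.5, 9.43, 10.99 and 14.6 and stayed below the background limit throughout, and whether it lies within the transduced sequence was not given in the sources used here, so it could not serve as a check of the MDS-L/CDA label.

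The chromosome 19 ZNF genes were widely transcribed in these cells. On all 4 arrays 187 of the 249 (75.1%) were well above background, 30 were so on some arrays, and 32 on none. Over all genes on the array, 32.2% passed on all 4 arrays, over genes with a RefSeq mRNA probe 55.7%, and over the 273 ZNF genes of other chromosomes 69.2%. By array the members above background numbered 206 and 213 in MDS-L with vehicle and AZA, and 195 and 195 in MDS-L/CDA. The 32 that were never seen included ZNF43, ZNF208, ZNF431, ZNF486, ZNF492, ZNF676, ZNF682, ZNF708 and ZNF737, all in the cluster between 19.79 and 24.31 Mb, where 10 of 34 genes were not seen. Members seen on any array had a median of 21 CpG in the promoter (187 with a promoter) and those never seen had 16 (24 with a promoter).

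In MDS-L cells the ZNF genes as a group moved little with AZA. The median log2 ratio of AZA to vehicle was -0.09 over the 202 members measured on both arrays and -0.16 over all 15104 genes measured, and the SD across genes was 0.49 for the members and 0.66 for all genes. Under quantile normalization the medians were 0.03 for the members and -0.04 for all genes, so the sign for the members depended on the scaling. At least 2-fold higher was 1 member (0.495%), where the background over all genes was 4.44%. At least 2-fold lower were 11 members (5.45%), against a background of 5.9%. At 1.5-fold, 9 members were higher (4.46%, background 10.3%) and 26 were lower (12.9%, background 18.3%). The ZNF genes of other chromosomes had a median of -0.10, with 1.99% at least 2-fold higher and 4.98% at least 2-fold lower. In bulk RNA of this kind, fewer cells expressing a gene and less RNA per cell cannot be told apart.

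**Figure D1:**
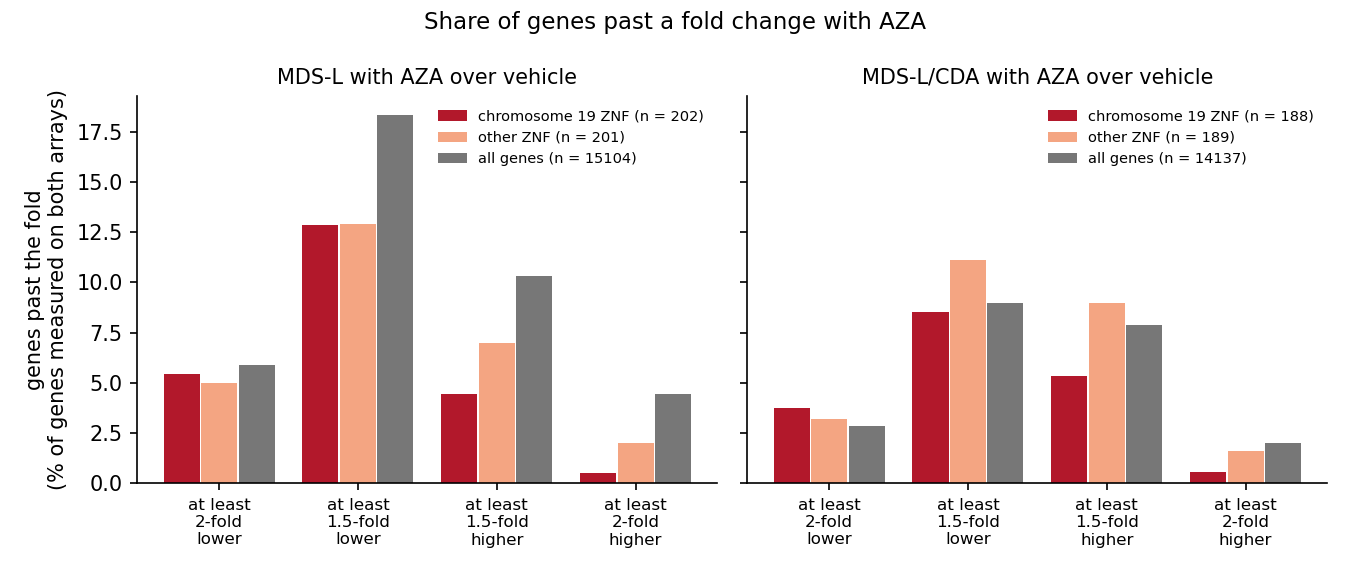
Bars show the percentage of genes at least 1.5-fold or 2-fold higher or lower with AZA than with vehicle, in MDS-L (left) and MDS-L/CDA (right), among genes well above background on both arrays of the pair. The chromosome 19 ZNF genes (red) had a smaller share at least 2-fold higher than all genes (grey) in both lines, 0.495% against 4.44% and 0.532% against 2%.

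ZNF791 was the 1 member at least 2-fold higher in MDS-L. Its scaled signal was 78.9 with vehicle and 519.8 with AZA in MDS-L, and 349 and 370.1 in MDS-L/CDA. It was thus 6.59-fold higher with AZA in MDS-L, whereas the 2 MDS-L/CDA arrays lay close together and near the level of MDS-L with AZA. A second ZNF791 probe stayed below the background limit on the 4 arrays, so the difference rests on 1 probe. After ZNF791 came ZNF667, with signals of 160.2 and 298 in MDS-L and 161 and 127 in MDS-L/CDA, a 1.86-fold difference with AZA in MDS-L. Its other probes gave 1.00-fold and 1.56-fold. ZNF763 read 598 with vehicle and 1003 with AZA in MDS-L, 1.68-fold higher, and 998.6 and 967 in MDS-L/CDA. The MDS-L vehicle array was again the low one.

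Among the members below background in MDS-L with vehicle, 11 of 43 (25.6%) were well above it with AZA. The background over all genes for this crossing was 4.96%, and it was 8.83% over genes with a RefSeq mRNA probe and 7.94% over the other ZNF genes. These 11 included ZNF541, a zinc finger protein of germ cells that acts in meiosis. ZNF541 read 4.14 with vehicle and 120.3 with AZA in MDS-L, and 24.5 and 64.2 in MDS-L/CDA, with both vehicle arrays below background. It was therefore at least 6.34-fold higher with AZA in MDS-L and at least 2.36-fold higher in MDS-L/CDA. For such bounds the dim signal was replaced by the lowest signal called well above background on its array wherever that was the higher. ZNF227 showed the same order, with 20.7 and 64.8 in MDS-L and 12.8 and 60.4 in MDS-L/CDA. It was at least 3.13-fold and at least 2.22-fold higher with AZA. These were the only 2 members below background with vehicle and above it with AZA in both lines, and each had 1 probe on the array. The share of all genes that crossed in both lines was not computed, so this count has no background. ZNF606 read 20.9 and 44.6 in MDS-L, at least 2.13-fold higher, but 26.1 and 7.43 in MDS-L/CDA, neither above background. ZNF582 (at least 1.81-fold) and ZNF818P (at least 1.69-fold) followed, and the other 6 had bounds of 1.27 to 1.61.

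In the opposite direction 4 of 206 members (1.94%) were above background with vehicle and below it with AZA, against 4.46% over all genes. ZNF878, whose probe is shown above, read 70.2 and 13.5 in MDS-L and 43.9 and 33.4 in MDS-L/CDA. It was at least 3.69-fold lower with AZA in MDS-L. The remaining 3, ZNF749, ZNF781 and ZNF69, had bounds of at least 1.47-fold, 1.21-fold and 1.31-fold lower.

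The 11 members at least 2-fold lower in MDS-L with AZA were ZNF730, ZNF222, ZNF121, ZNF681, ZNF529, ZNF180, ZNF160, ZNF649, ZNF544, ZNF607 and ZNF844. ZNF730 had the lowest ratio, 0.225, with signals of 111 and 25.05 in MDS-L and 70.2 and 55.2 in MDS-L/CDA. Its AZA signal in MDS-L was close to the background limit, and so were those of ZNF222 (80.1 to 27.6, ratio 0.344) and ZNF681 (76.2 to 31.2, ratio 0.409). ZNF121 stood further from it, with 270.2 and 104 in MDS-L and 260.2 and 92.6 in MDS-L/CDA. ZNF529 was brighter still, with 1053 and 435 in MDS-L and 661 and 613 in MDS-L/CDA, ratios of 0.413 and 0.927. ZNF544 read 2336 and 1094 in MDS-L, a ratio of 0.469, whereas its second probe gave 1.09. In 7 of these 11 genes, ZNF121, ZNF529, ZNF180, ZNF160, ZNF544, ZNF607 and ZNF844, the AZA signal was above 100.

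**Figure D2:**
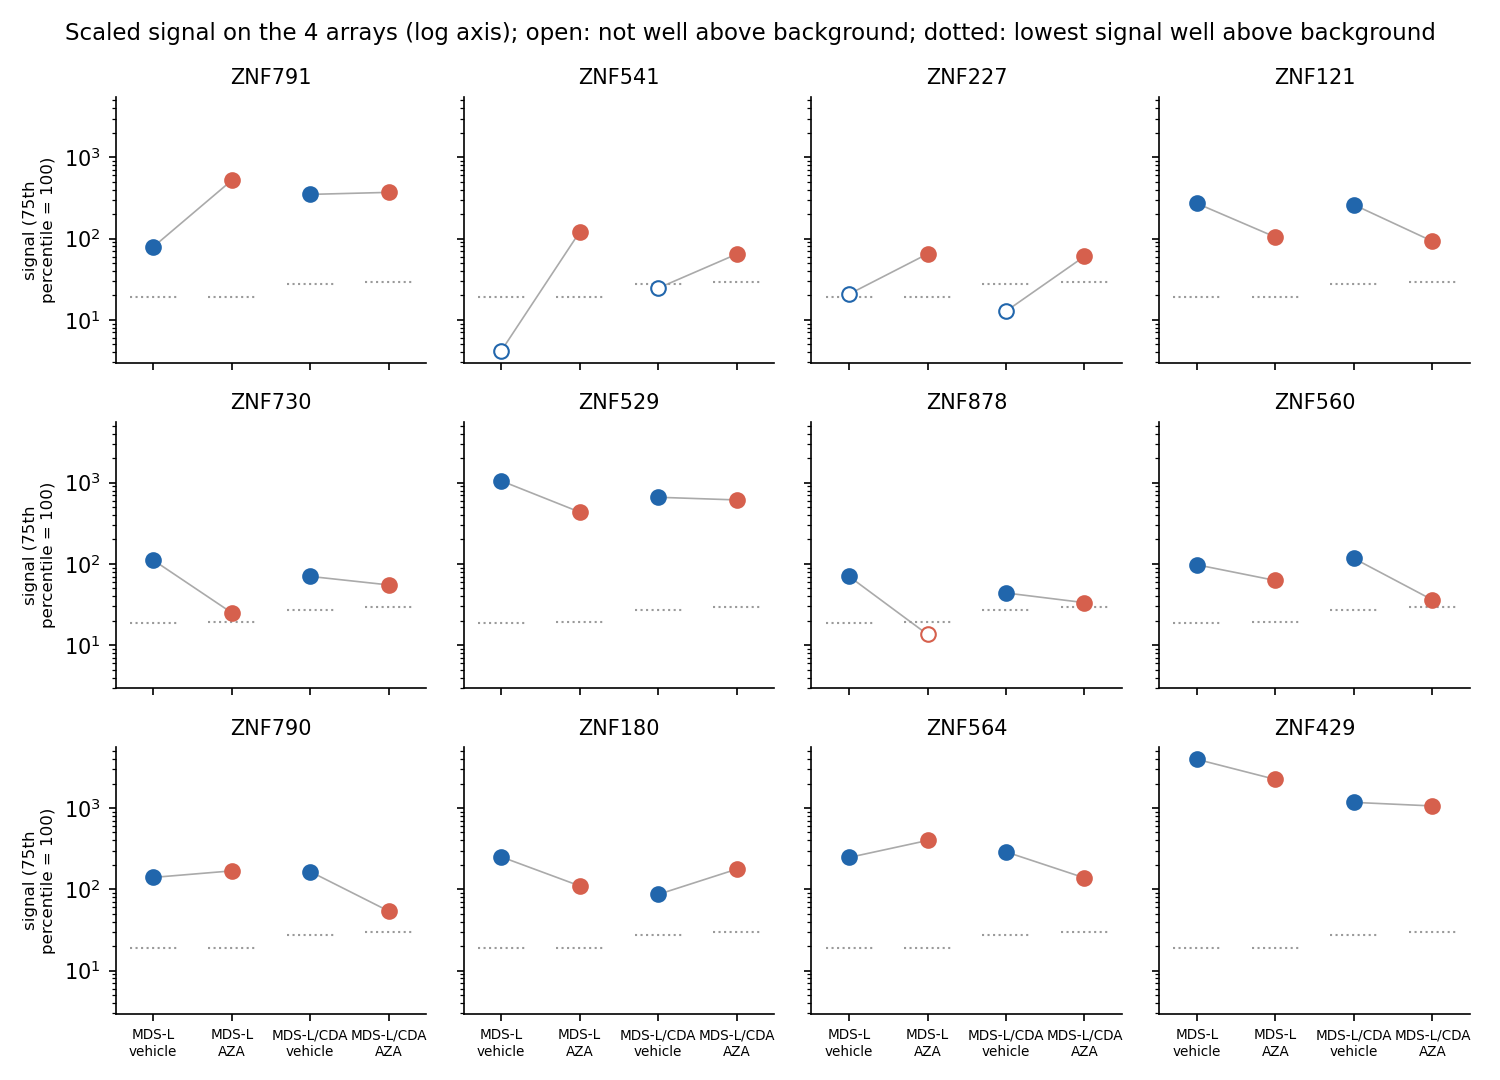
Scaled signal (75th percentile of each array = 100, log axis) of 12 members on the 4 arrays, blue for vehicle and red for AZA, with open circles where the probe was not well above background and dotted lines at the lowest signal called well above background. ZNF541 and ZNF227 were above background only with AZA in both lines, and ZNF121 was lower with AZA in both lines, from 270.2 to 104 and from 260.2 to 92.6.

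In MDS-L/CDA cells the median log2 ratio was 0.03 over the 188 members measured and 0.01 over all 14137 genes, with SDs of 0.43 and 0.47. At least 2-fold higher was 1 member (0.532%, background 2%) and at least 2-fold lower were 7 (3.72%, background 2.83%). At 1.5-fold, 10 were higher (5.32%, background 7.9%) and 16 lower (8.51%, background 8.99%). The 7 were ZNF560, ZNF790, ZNF121, ZNF564, ZNF571, ZNF146 and ZNF430. ZNF560 read 97.5 and 62.5 in MDS-L and 117 and 36.1 in MDS-L/CDA, a ratio of 0.309 in the latter. ZNF790 read 140 and 168 in MDS-L and 165 and 53.9 in MDS-L/CDA, so the MDS-L/CDA AZA array was the low one and its ratio was 0.326. ZNF430 had a ratio of 0.493, against 1.23 for its second probe. The 1 higher member was ZNF180. ZNF93, which represses LINE-1 elements, was 1.69-fold higher with AZA in MDS-L/CDA, with signals of 385, 373, 349 and 591 on the 4 arrays, but its probe shares a run with one of ZNF99. Of the 54 members below background with vehicle in MDS-L/CDA, 7 (12.96%) were above it with AZA. This share was 2.37% over all genes, 3.85% over genes with a RefSeq mRNA probe and 2.56% over the other ZNF genes. Besides ZNF541 and ZNF227 the largest bounds were at least 1.89-fold for ZNF222, 1.76-fold for ZNF225 and 1.52-fold for ZNF780B. Lost from view with AZA were 7 of 195 (3.59%, against 3.93% over all genes), the largest bounds being at least 1.64-fold lower for ZNF230, 1.56-fold for ZNF99 and 1.55-fold for ZNF155.

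Across the 2 lines, 187 members were measured on all 4 arrays. At least 1.5-fold lower with AZA in both were ZNF121, ZNF160, ZNF28 and ZNF560 (2.14%, background 3.66%). ZNF121 had ratios of 0.385 in MDS-L and 0.356 in MDS-L/CDA, and no other member was at least 2-fold lower in both. ZNF160 had 0.454 and 0.528, but its second measured probe gave 1.54 and 0.959. ZNF28 had 0.650 and 0.561, with 0.995 and 0.456 from its second probe. At least 1.5-fold higher in both was only ZNF211 (0.535%, background 2.92%), with signals of 81.6 and 137 in MDS-L, 47.4 and 82.6 in MDS-L/CDA, and ratios of 1.68 and 1.74.

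**Figure D3:**
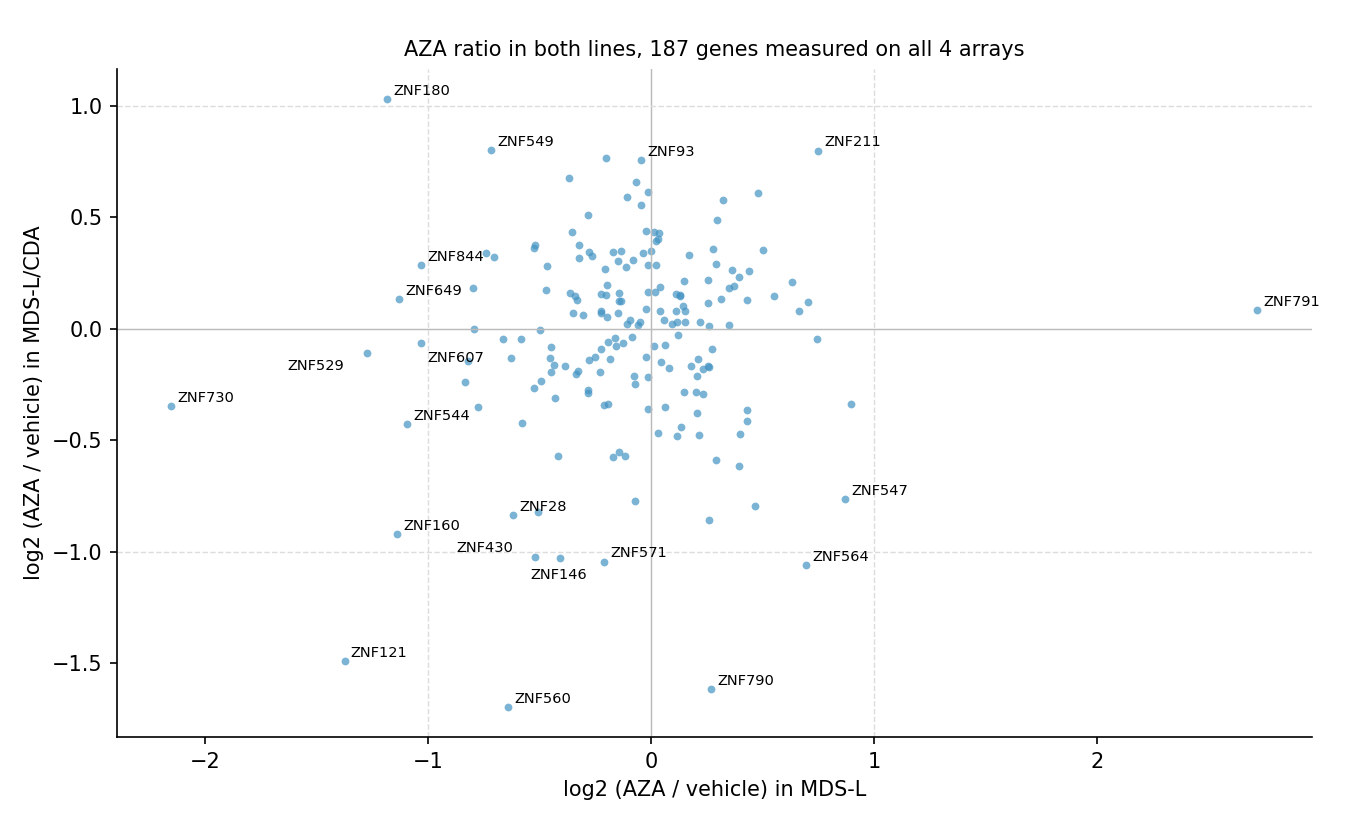
Each point is one of 187 ZNF genes of chromosome 19 measured on all 4 arrays, with the log2 ratio of AZA to vehicle in MDS-L on the x axis and in MDS-L/CDA on the y axis; dashed lines mark 2-fold. Most points lie within 2-fold in both lines, ZNF791 stands alone to the right at 2.72, and ZNF121 is the one labelled gene below -1 on both axes.

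The AZA ratio in MDS-L minus that in MDS-L/CDA, on the log2 scale, had a median of -0.08 over the 187 members and -0.15 over all 13962 genes measured on all arrays. It was at least 1 in 9 members (4.81%, background 3.9%) and at most -1 in 9 (4.81%, background 6.15%). ZNF180 had the lowest value, -2.22. Its signal was 251 and 110.2 in MDS-L and 86.4 and 177 in MDS-L/CDA, so that it was lower with AZA in one line (ratio 0.439) and higher in the other (2.04-fold). ZNF549 ran the same way, with 113 and 68.9 in MDS-L and 58.7 and 102 in MDS-L/CDA. ZNF564 ran the other way, with 246 and 399 in MDS-L and 288 and 138 in MDS-L/CDA. So did ZNF547, with 70.7 and 129 in MDS-L and 92.4 and 54.5 in MDS-L/CDA, but its second probe went against this in both lines. That probe read 37.7 and 33.5 in MDS-L (ratio 0.888), and in MDS-L/CDA 17.3, below background, with vehicle and 36.3, above it, with AZA. These 4 of 187 members (2.14%) were at least 1.5-fold apart from vehicle in opposite directions in the 2 lines, where the background over all genes was 1.37%.

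Without AZA the lines were close in these genes. The median log2 ratio of MDS-L/CDA to MDS-L was 0.04 over 194 members and 0.09 over all 14510 genes. At least 2-fold higher in MDS-L/CDA was 1 member (0.515%, background 1.59%), ZNF791, at 4.43-fold. At least 2-fold lower were 5 (2.58%, background 2.17%), namely ZNF429, ZNF180, ZNF418, ZNF415 and ZNF160. At 1.5-fold, 11 were higher (5.67%, background 7.38%) and 18 lower (9.28%, background 6.88%). ZNF429, whose probe shares a run of 20 bases with one of ZNF714, read 3971 and 2248 in MDS-L and 1174 and 1061 in MDS-L/CDA. Its ratio between the vehicle arrays was 0.296, and both MDS-L/CDA arrays lay below both MDS-L arrays. ZNF418, with 241 and 261 in MDS-L and 90.7 and 92.5 in MDS-L/CDA, and ZNF415, with 176 and 174 in MDS-L and 68.7 and 73.0 in MDS-L/CDA, had the same arrangement, the AZA and vehicle arrays of each line being nearly equal. In the reverse direction ZNF285 read 91.7 and 68.1 in MDS-L and 183 and 147 in MDS-L/CDA, and its vehicle ratio of 1.99 was just under 2-fold. ZNF551 read 206 and 209 in MDS-L and 374 and 457 in MDS-L/CDA. Another ZNF551 probe went the other way with vehicle, with 35.0, above background, in MDS-L and 27.2, below it, in MDS-L/CDA. With AZA that probe went the same way, with 23.7, below background, in MDS-L and 65.7, above it, in MDS-L/CDA. ZNF625 and ZNF837 were 1.84-fold and 1.83-fold higher in MDS-L/CDA with vehicle, but the second probe of ZNF625 gave 1.15-fold. With AZA in both lines, 6 of 194 members were at least 2-fold higher in MDS-L/CDA (3.09%, background 5.32%) and 7 were at least 2-fold lower (3.61%, background 3.91%), and the median log2 ratio was 0.12 against 0.23 over all genes. The comparisons between lines use the same 4 arrays as those between treatments and add no independent measurement.

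Along the chromosome the members fell into 16 groups when a gap of 1 Mb or more between neighbouring probes was taken as a break, and 7 of these held at least 5 measured genes. Together those 7 clusters held 227 of the 249 genes. Numbered from the short-arm end, they had median log2 AZA/vehicle ratios in MDS-L between -0.23 and 0.06. The one positive median, 0.06, belonged to cluster 3 (chr19:11596540-12740240, hg19), where 22 of 26 genes were measured. There 5 genes were at least 1.5-fold higher with AZA, ZNF791, ZNF763, ZNF564, ZNF44 and ZNF833P, out of 9 such members on the whole chromosome (background over all genes 10.3%). ZNF44 read 112 and 177 in MDS-L and had ratios of 1.58 and 1.67 from its 2 probes. In MDS-L/CDA this cluster had a median of -0.11 and no gene at least 1.5-fold higher. The other genes of the same interval, not named ZNF, had medians of -0.18 in MDS-L and -0.25 in MDS-L/CDA (7 measured). The lowest median in MDS-L, -0.23, was that of cluster 5 (chr19:19790730-24309903, hg19), where 24 of 34 genes were measured, 6 were at least 1.5-fold lower (background 18.3%) and none was at least 1.5-fold higher (background 10.3%). The 6 were ZNF730, ZNF681, ZNF85, ZNF429, ZNF99 and ZNF738. Its median in MDS-L/CDA was 0.13, and other genes of the interval had -0.18 in MDS-L (13 measured). In cluster 5 the probes of 13 of the 24 measured genes shared a run of 20 bases with a probe of another gene, and so did those of 4 of the 6, so that signals of these relatives may be mixed. The other 5 clusters had medians from -0.14 to -0.05 in MDS-L and from -0.08 to 0.15 in MDS-L/CDA. Clusters 2, 12 and 15, with 13, 19 and 34 genes measured, also had no gene at least 1.5-fold higher in MDS-L (background 10.3%). Cluster 9 had 1 and cluster 16 had 3, so the lack of such genes was not particular to cluster 5.

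**Figure D4:**
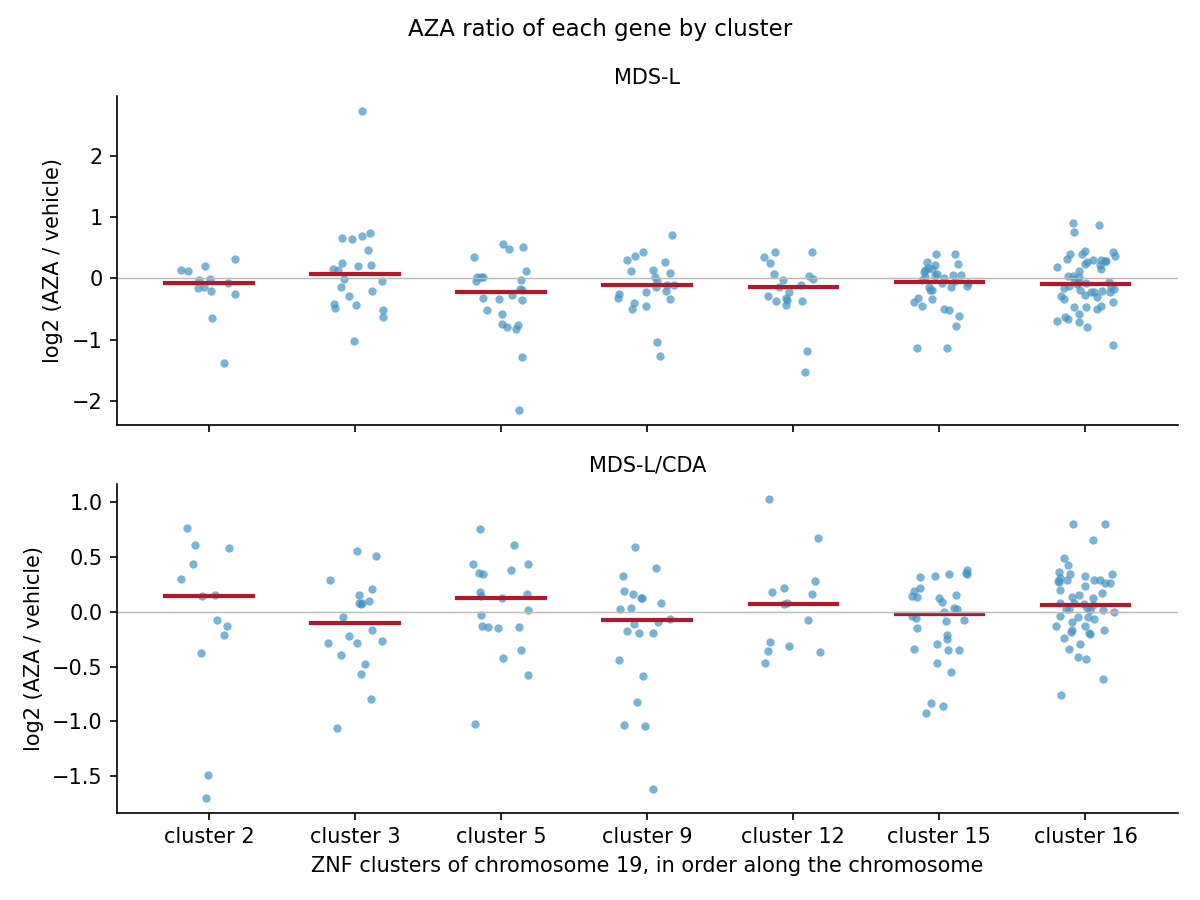
Log2 ratio of AZA to vehicle for every measured ZNF gene (points) of the 7 clusters with at least 5 measured genes, in MDS-L (top) and MDS-L/CDA (bottom); red lines are cluster medians and the horizontal scatter within a cluster has no meaning. Cluster 3 holds 5 of the 9 genes at least 1.5-fold higher in MDS-L, and the cluster medians run from -0.23 to 0.06 in that line.

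Genes known for promoter hypermethylation in tumours were taken as a first list. All 19 were members, 15 were measured in MDS-L, 13 of them had a ratio under 1, and their median log2 ratio was -0.15 (all genes -0.16, with 62.3% under 1). None was at least 1.5-fold higher with AZA in MDS-L (background 10.3%), 5 were at least 1.5-fold lower (background 18.3%) and 2, ZNF529 and ZNF544, at least 2-fold lower (background 5.9%). ZNF331, an imprinted gene, read 1083 and 631 in MDS-L, a ratio of 0.583, while its other probe measured on both arrays was almost level (0.999). ZNF582 and ZNF471 were above background in MDS-L only with AZA, and ZNF781 only with vehicle. ZNF582 read 15.3 and 34.3 in MDS-L and 33.5 and 30.8 in MDS-L/CDA, all near the limit. ZNF154 was below background on all arrays. In MDS-L/CDA the median was 0.08 over 14 genes, and ZNF549, ZNF132 (1.58-fold) and ZNF382 (1.51-fold) were at least 1.5-fold higher (background 7.9%). ZNF568, with 83.2 and 55.3 there, was at least 1.5-fold lower (ratio 0.664, background 8.99%), and ZNF540 and ZNF582 were above background only with vehicle.

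The list of retroelement-binding factors held 12 genes, 11 of them on chromosome 19. In MDS-L 10 of the 12 were measured, their median being -0.11 on the log2 scale. None was past 2-fold (background over all genes 4.44% higher and 5.9% lower). ZNF91, which represses SVA elements, read 26.9 and 27.4 in MDS-L and was below background in MDS-L/CDA. ZNF808 read 1665 and 1313 in MDS-L and 1551 and 1719 in MDS-L/CDA, and ZNF765 read 4186 and 3815, then 3925 and 4994. ZNF417 had the lowest ratio in MDS-L, 0.666. ZNF43 and ZNF534 were not seen.

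The partners of KRAB zinc finger proteins were described from a list of 22 corepressor and DNA methylation genes, 20 of them measured, and their log2 ratios had medians of -0.13 in MDS-L and 0.06 in MDS-L/CDA. TRIM28 read 6979 and 6401 in MDS-L and 6777 and 7450 in MDS-L/CDA, ratios of 0.917 and 1.099. SETDB1 had ratios of 0.970 and 1.31. At least 2-fold lower in MDS-L were 2 of the 20 (background over all genes 5.9%). These were UHRF1, which brings DNMT1 to hemimethylated DNA, from 2524 to 1142, and DNMT3B, a de novo methyltransferase, from 10992 to 5090. Both were nearer to level in MDS-L/CDA, with ratios of 0.847 and 0.920. DNMT1 itself had 0.799 and 1.11. FAM208A, a subunit of the HUSH silencing complex, read 70.5 and 86.4 in MDS-L and 140.2 and 56.5 in MDS-L/CDA, ratios of 1.23 and 0.403. It was the 1 gene of the 20 at least 2-fold lower in MDS-L/CDA (background over all genes 2.83%). Of 10 endogenous retroviral or retroelement-derived genes 8 were on the array and 3 were seen. ERVMER34-1 read 765 and 208 in MDS-L and 362 and 455 in MDS-L/CDA, ratios of 0.271 and 1.26, and ERVK13-1 was 1.60-fold higher in MDS-L. ERV3-1 was called above background only in MDS-L with AZA, at least 1.21-fold higher than with vehicle. It read 4.50 and 22.9 in MDS-L and 26.9 and 22.1 in MDS-L/CDA, where the limits were higher (27.2 and 29.6, against 19.03 in MDS-L with AZA).

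Promoter CpG number divided the members only slightly. In MDS-L the 87 measured members with at most 20 CpG, the median, had a median log2 ratio of -0.14 and the 91 with more had -0.01. In MDS-L/CDA the medians were 0.03 and 0.00. At least 1.5-fold higher in MDS-L were 3 members of each of these sets (background over all genes 10.3%), and at least 2-fold lower were 5 of each (background 5.9%).

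Several probes allowed a check on single-gene values, since 97 of the 249 members had more than 1 probe, up to 5. In MDS-L 63 members had at least 2 probes measured on both arrays. The largest gap between the log2 ratio of the probe used and of the others had a median of 0.40, and in 34 (54.0%) all probes agreed in sign. Over all 3451 genes of this kind the median gap was 0.36 and 65.6% agreed in sign. In MDS-L/CDA the median gap was 0.37 over 49 members, 23 of them (46.9%) of 1 sign, and 0.38 over 3178 genes, 50.5% of 1 sign. In 6 members in MDS-L and 8 in MDS-L/CDA the gap was at least 1. The probe used was past 2-fold in 2 of these members in MDS-L and in 1 in MDS-L/CDA, and in none of the 3 cases did another probe pass 2-fold in the same direction.

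**Figure D5:**
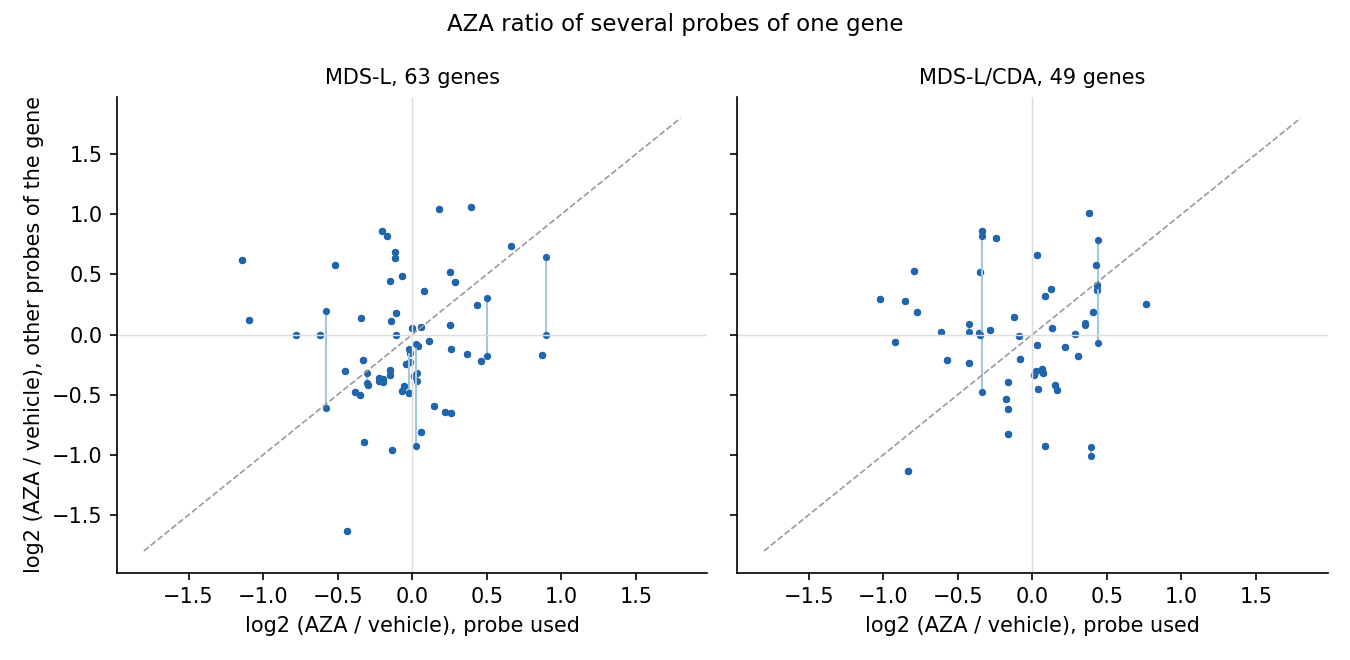
For members with several measured probes, the log2 AZA/vehicle ratio of the probe used (x axis) is plotted against that of the gene's other probes (y axis; a blue line joins the lowest and highest where there are more than 2), in MDS-L (63 genes) and MDS-L/CDA (49 genes). Points scatter widely about the dashed line of equality, and all probes of a gene agreed in sign in 54.0% and 46.9% of these genes.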

How the data were processed

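Total RNA of 4 cultures was hybridised by the authors to 1-colour Agilent arrays, scanned and read with Feature Extraction 10.7.1.1 per the file headers. The deposited files hold the background-subtracted processed signal (an intensity), the call well above background and each probe's hg19 position. The authors' value table of the same arrays holds intensity values whose normalization was not stated, and it was used as an alternative only; the log2 of these values gave the ratios of quantile normalization closely. How label and hybridisation were done was not given in the sources used here. Control spots and outlier spots were left out, spots of a probe were averaged, and log2(processed signal) minus each array's 75th percentile was used. Ratios were taken only where a probe was well above background on both arrays. One label field of 2 samples names the opposite treatment, and a label gives the dose as 1 mM, so groups follow the title, description and source, which agree on treatment; the dose printed is that of the treatment protocol, 1 μM. IL-3 was 20 ng/mL per the labels.

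Named genes were the 5 largest increases and decreases per line, the 5 largest bounds each way, the 5 largest differences each way between the vehicle arrays, and the members of the lists; others named were chosen after their values were seen. Members and lists were chosen with earlier results of these data known. Positions of clusters follow probe starts. A protein table was not used here, so no split by KRAB domain or finger number was made. The 4 arrays, 1 per condition, limit the precision. Counting and ratio steps were tested on simulated data. Python 3.11.15, numpy 2.4.6, pandas 2.3.3, R 4.3.3 and limma 3.58.1 (normexp, offset 50, and the fit with a term for line) were used. The alternatives, 13 planned and 2 chosen after seeing the data, covered scaling, background correction, filters, choice of probe, the fold and the fit over both lines. One marker gene is not reported here.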

Additional observations from a re-analysis of the deposited data

Results flagged for a closer look

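In 4 of 187 members (2.14%, against 1.37% over all genes) the AZA ratio of at least 1.5-fold ran in opposite directions in the 2 lines, with 1 array per condition, and the difference was not tested. The log2 ratio in MDS-L minus that in MDS-L/CDA was -2.22 for ZNF180, -1.52 for ZNF549, 1.76 for ZNF564 and 1.63 for ZNF547. ZNF180, ZNF549 and ZNF564 had 1 probe each. The second probe of ZNF547 went against the first in both lines, with a ratio of 0.888 in MDS-L, and in MDS-L/CDA with 17.3, below background, with vehicle and 36.3, above it, with AZA.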

How the results depend on the processing

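Because each condition had 1 array, vehicle and AZA could be paired by line only, and no replicate could be left out. A limma fit chosen after seeing the data took each line as a block, with a term for AZA that assumes both lines respond alike, and had 1 residual degree of freedom. It called 0 of 13962 genes and 0 of 187 members at an adjusted p of 0.05 (smallest 0.0792 and 0.147), and 1876 genes (13.4%) and 10 members (5.35%) at an unadjusted p of 0.05. The spot SD, that of 1 gene, is lenient for a median. Medians moved by more than this under median scaling, to -0.63 in MDS-L and -0.48 for MDS-L/CDA over MDS-L with vehicle. Without scaling they did so between lines, to -0.32 with vehicle and -0.39 with AZA. Both settings shift all genes of an array alike (all-gene median -0.70 in MDS-L under median scaling). They cannot change the members' distance from the all-gene median, and say nothing about its stability. In MDS-L the members' median was higher by 0.07 in the main setting and by 0.05 with normexp. With quantile normalization and the authors' value table it was higher by 0.07 and 0.06 and changed sign, to 0.03. Median scaling gave 37 members at least 2-fold lower in MDS-L (18.3%, against 25.8% over all genes). It gave 21 lower in MDS-L/CDA than in MDS-L with vehicle (10.8%, against 9.43% over all genes). Without scaling, 18 were lower in MDS-L/CDA with vehicle, and with AZA 0 were higher and 23 lower. Median, quantile, no scaling, normexp and the authors' value table each left 0 at least 2-fold higher with AZA in MDS-L/CDA, since ZNF180 was then under 2-fold. Normexp with its offset, which shrinks dim differences, left 1 lower in MDS-L (0.495%, against 2.81% over all genes) and 0 in MDS-L/CDA (1.32% over all genes). It left 0 higher (0.880% over all genes) and 2 lower (1.03%, against 2.65% over all genes) between lines with AZA. Most of the 2-fold counts thus depend on the background treatment. With it ZNF791 moved from 2.72 to 1.82 in MDS-L, ZNF529 had -1.30, ZNF429 had -1.82 between the vehicle arrays, and ZNF121 had -0.91 and -0.77 with AZA in the 2 lines.

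Taking the mean of all probes gave 2 higher in MDS-L, 0 higher between lines with vehicle and 3 higher with AZA. Genes with 1 probe gave 0 higher in MDS-L, 0 between lines with vehicle, and 3 higher and 4 lower with AZA. Requiring 1 array above background gave 6 higher in MDS-L, 4 higher in MDS-L/CDA, 2 higher and 11 lower between lines with vehicle and 14 lower with AZA. Dim signals at their bound gave 4 and 3 higher with AZA in the 2 lines and 9 lower between lines with vehicle. Without a filter there were 10 higher in MDS-L, 8 higher and 17 lower in MDS-L/CDA, 6 higher and 13 lower between lines with vehicle and 17 lower with AZA. At 1.5-fold the counts were 9 higher and 26 lower, 10 and 16, 11 and 18, and 24 and 20 in the 4 comparisons. Leaving out probes that share a run, an alternative chosen after seeing the data, and keeping outlier spots moved no 2-fold count past 1.5 times in any of the 4 comparisons. The measured members past 2-fold and, in 3 comparisons, the 5 largest each way made 51 pairs of gene and comparison. Of their 357 values under 7 alternatives, 255 moved by less than the spot SD and 102 by more. A change of direction was counted only for pairs at least 2-fold apart in the main setting, and 0 were found. Most of these alternatives could hardly reverse such a pair, so the 0 says little. The mean of all probes holds the probe used and equals the main value for genes with 1 probe. With AZA, only ZNF160 and ZNF544 in MDS-L and ZNF430 in MDS-L/CDA were past 2-fold with another probe measured. That probe alone gave ratios of 1.54, 1.09 and 1.23, the other way. Other genes named were not run.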
